A study of Mus musculus with 14 samples.

Results

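The genes described here encode the subunits of the transcription factor NF-kappaB and the inhibitors and targets that it switches on in turn. The members were 10 listed mouse genes: the subunit genes Rela, Relb, Rel, Nfkb1 and Nfkb2, the inhibitor genes Nfkbia and Nfkbie, and the target genes Tnfaip3, Tnfaip2 and Birc3. A probe set of the array, a group of short probes that reads 1 transcript region, was taken when the platform annotation named a single gene for it and that gene was on the list. This gave 19 probe sets of 9 genes among the 45037 probe sets that are not controls. Nfkb1 was not analysed here.

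SCp2 cells, an established line of mouse mammary epithelial cells of unstated strain, were plated in 35 mm dishes, grown in DMEM with 2% fetal calf serum, and kept for 3 days as controls or with MMP-3, a secreted protease that cuts matrix and cell surface proteins and is known to set off mesenchymal change in mammary epithelium. The dose of MMP-3 and what the control dishes received are not stated in the labels. Experiment A held 6 arrays, 1 control and 1 MMP3 dish at each of 50K, 100K and 250K plated cells (K marks the labels' unit of 1000 cells), and experiment B held 8 arrays, with 25K added. Each value is thus 1 dish, and the labels do not say how dishes of an experiment were related. No agent and density was repeated within an experiment, so the spread between like dishes could not be measured there. A p-value here reflects only how far single dishes lay from the fitted lines in log2 density.

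NF-kappaB proteins act as pairs drawn from Rela, Relb, Rel and the products of Nfkb1 and Nfkb2. In resting epithelium the pairs are held in the cytoplasm by inhibitors of the IkB family, such as the products of Nfkbia and Nfkbie, until receptor signals activate the IkB kinases, which mark the inhibitors for destruction. The released factor binds kappaB sites in DNA and switches on its own inhibitors, some of its own subunits and Tnfaip3, which encodes the deubiquitinase A20, so that each round of signalling builds its own brake.

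The DNA in front of these genes is shown first, for the 5 members that hold a match to the same degenerate 10-base consensus there. The sequences come from RefSeq, build GRCm38.p6, and each is the 150 bases that end just before a transcript start, on the gene's own strand, 5′ to 3′. They span chr12:55492648-55492797 (minus strand) for Nfkbia, chr17:45555550-45555699 (plus) for Nfkbie, chr19:46304587-46304736 (plus) for Nfkb2, chr11:23770970-23771119 (minus) for Rel and chr10:19015411-19015560 (minus) for Tnfaip3. Capitals mark matches, on either strand, to the classical kappaB consensus, which is 10 bases long and was searched as 3 G, a purine, any base, A or T, 2 pyrimidines and 2 C. Adjoining capitals in Nfkb2 and in Rel are overlapping matches.
Nfkbia: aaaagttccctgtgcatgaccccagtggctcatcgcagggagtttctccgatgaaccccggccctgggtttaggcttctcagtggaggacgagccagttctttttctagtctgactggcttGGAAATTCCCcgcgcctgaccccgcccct
Nfkbie: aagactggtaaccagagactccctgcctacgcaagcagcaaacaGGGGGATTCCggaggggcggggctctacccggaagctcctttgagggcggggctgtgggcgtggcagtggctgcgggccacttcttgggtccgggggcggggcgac
Nfkb2: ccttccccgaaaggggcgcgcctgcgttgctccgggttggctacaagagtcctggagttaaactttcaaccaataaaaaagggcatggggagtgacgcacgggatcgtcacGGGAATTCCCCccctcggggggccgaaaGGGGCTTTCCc
Rel: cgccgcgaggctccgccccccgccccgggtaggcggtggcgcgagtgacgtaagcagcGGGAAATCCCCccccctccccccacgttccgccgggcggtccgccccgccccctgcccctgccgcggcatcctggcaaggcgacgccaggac
Tnfaip3: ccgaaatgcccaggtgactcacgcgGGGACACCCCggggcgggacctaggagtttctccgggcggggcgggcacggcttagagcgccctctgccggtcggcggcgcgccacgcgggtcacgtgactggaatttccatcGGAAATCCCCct

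The first base of the match lay at -29 from the transcript start in Nfkbia and at -106 in Nfkbie. In the window shown for Nfkb2, matches began at -39, -38 and -11, in Rel at -92 and -91, and in that shown for Tnfaip3 at -125 and -12. Nfkb2 has 3 windows in the table, and the others held matches at -236, 11 and -225 from their own starts. These other windows overlap, and the matches at 11 and -225 are the same site counted from different starts. The other window of Tnfaip3 held none. Windows of 300 bases, from 250 before to 50 after a start, were in the table for 8 of the member genes, and 5 of these genes held a match. By comparison, 4.51% of all 32851 windows and 5.14% of all 27025 genes in the table held one. The members were listed as NF-kappaB subunits and feedback targets, so this comparison is not independent of the list. The windows of Rela, Tnfaip2 and Birc3 had no match to these letters, and Relb had no window in the table. A match describes the sequence and no binding was measured.

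The deposited values are relative log2 expression, centred so that each probe set has a median of 0 across the arrays. They give differences between arrays and no level, so members cannot be compared with each other in abundance, the epithelial identity of the cells cannot be read from the level of a marker, and a gene near background cannot be told from one that did not vary. Of the 19 probe sets, 14 passed the filter on spread, an SD across arrays of at least 0.049, the 40th percentile among probe sets other than controls. The other 5 were nearly flat and were not tested. They were both probe sets of Birc3, which encodes the ubiquitin ligase cIAP2, with a full range over the arrays of 0.0481 and 0.0854, the probe set 1450829_at of Tnfaip3 (0.141), and the probe sets 1416273_at (0.0372) and 1457918_at (0.083) of Tnfaip2. RNA of whole dishes was measured, so fewer cells that express a gene and less RNA per cell cannot be told apart.

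Set against the MMP3 effect of experiment A, some arrays of experiment B did not go with their labels. This takes the labels of A as right, and the correlations cannot say which experiment holds the departing arrays. Over the 27022 probe sets tested, the arrays of B labelled control 50K and control 250K correlated with the MMP3 effect of experiment A at r = 0.692 and 0.725, and those labelled MMP3 25K and MMP3 100K at r = -0.662 and -0.365. The other controls of B, 25K and 100K, gave -0.569 and -0.749, and the other MMP3 arrays, 50K and 250K, gave 0.674 and 0.378. Probe sets are not replicates, and these correlations describe the arrays. The array labelled MMP3 100K of B also stood apart in spread, with an SD over probe sets of 0.869 against 0.232 to 0.412 on the others. Arrays of B are therefore called by their deposited labels, and the experiments are given apart.

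**Figure D1:**
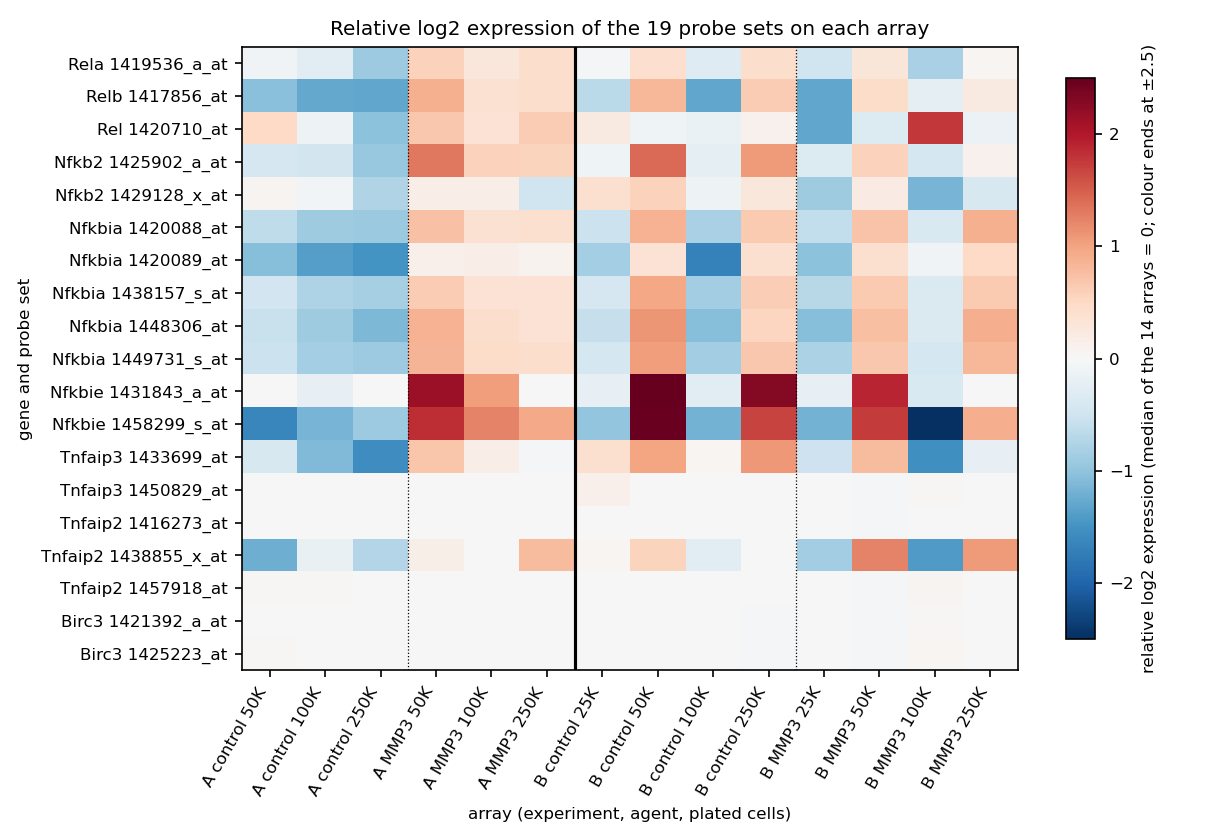
Relative log2 expression of each of the 19 probe sets (rows) on each of the 14 arrays (columns), with the median of a probe set at 0 and colours that end at 2.5 above or below it. In experiment A most rows are blue on the 3 control arrays and red on the 3 MMP3 arrays. In experiment B most rows of tested probe sets are red on the arrays labelled 50K under either agent and on control 250K. On MMP3 250K fewer rows are red, and others are pale or blue. Rel is not red on either array of B labelled 50K. The 5 probe sets under the filter are nearly white throughout.

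In experiment A most members rose with MMP-3: 12 of the 14 probe sets tested, from 7 of 8 genes, were higher at an adjusted p under 0.05 with limma, and none was lower. Among the probe sets called, Nfkbie 1458299_s_at (2.58 on the log2 scale) and Relb (1.78) rose by the most, and Rela and Rel by the least. The place of Nfkbie rests on that probe set. Its other probe set, 1431843_a_at, rose by 1.13, less than every other called probe set except Rela and Rel. Tnfaip2 did not pass. Over all 27022 probe sets, 19.9% passed in either direction, 11% as higher and 8.91% as lower. The median change of the members was 1.30 on the log2 scale, against -0.03 over all probe sets tested. The members were chosen with earlier results of these data known, and 5 of the 14 probe sets read Nfkbia. The shares and medians thus describe the list and are no independent comparison. The number of member genes called depends on the fit: it was 7 as fitted, 3 with no filter on spread, and 0 with any 1 of the 6 arrays left out, a fit that left 1 residual degree of freedom in place of 2 and called no probe set of the whole table.

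Among the subunits, Rela encodes p65, the main activating subunit. In experiment A its relative log2 value was -0.09, -0.27 and -0.91 on the controls at 50K, 100K and 250K, and 0.59, 0.27 and 0.43 on the MMP3 arrays in the same order. Every MMP3 array was above every control, and the controls were spread more widely (mean -0.43 ± 0.43, SD, n = 3) than the MMP3 arrays (0.43 ± 0.16, SD, n = 3). The rise was 0.86 on the log2 scale (SE 0.12), or 1.81-fold, with an adjusted p of 0.0303 in limma's fit. It fell short of the threshold with each density as a block (adjusted p 0.0933) and with no filter (0.0852).

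Relb encodes the activating subunit of the noncanonical pathway and is itself a target of NF-kappaB. Its controls in A read -1.05, -1.27 and -1.30 at 50K, 100K and 250K, and its MMP3 arrays 0.89, 0.38 and 0.45. The controls lay close together at -1.21 ± 0.14 (SD, n = 3), far from the MMP3 arrays at 0.57 ± 0.27 (SD, n = 3). The rise of 1.78 (SE 0.13), 3.43-fold, was the largest among the subunits (adjusted p = 0.0165, limma), and it passed with no filter too (0.0449).

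Rel encodes c-Rel, a subunit best known from lymphocytes. On the controls of A it read 0.49 at 50K, -0.12 at 100K and -1.02 at 250K, while the MMP3 arrays read 0.67, 0.36 and 0.63. The groups overlapped, since the control at 50K was above the MMP3 array at 100K. The differences between matched dishes were 0.18, 0.48 and 1.65 at 50K, 100K and 250K. At the mean density the rise was 0.77 (SE 0.12), 1.71-fold (adjusted p = 0.0355, limma). This call needed the product of agent and density in the model: without it the adjusted p was 0.172, with each density as a block 0.257, and with no filter 0.0965.

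Nfkb2 encodes p100, which holds Relb back until it is cut to the subunit p52. Its probe set 1425902_a_at read -0.43, -0.46 and -0.96 on the controls of A and 1.32, 0.57 and 0.57 on the MMP3 arrays at 50K, 100K and 250K, with no overlap. It rose by 1.43 (SE 0.17), 2.70-fold (adjusted p = 0.0266, limma; 0.0782 with no filter). The other probe set of the gene, 1429128_x_at, whose suffix marks probes that may also match other transcripts, did not pass. It read 0.06, -0.06 and -0.75 on the controls and 0.17, 0.16 and -0.49 on the MMP3 arrays, a difference of 0.20 (SE 0.14, adjusted p = 0.366, limma). Across the 14 arrays these 2 probe sets correlated at r = 0.633, so the size of the Nfkb2 change rests on the first.

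Among the inhibitors, Nfkbia encodes IkBalpha, the classical feedback brake on Rela. All 5 of its probe sets rose with MMP-3. For 1448306_at the controls of A read -0.56, -0.88 and -1.12 and the MMP3 arrays 0.86, 0.43 and 0.36 at 50K, 100K and 250K. No control reached an MMP3 array on any of the 5 probe sets. The rises were 1.33 (SE 0.10) for 1420088_at, 1.43 (SE 0.07) for 1420089_at, 1.15 (SE 0.09) for 1438157_s_at, 1.41 (SE 0.09) for 1448306_at and 1.34 (SE 0.10) for 1449731_s_at. These are folds of 2.21 to 2.70, with adjusted p between 0.0141 and 0.0167 in limma's fit and between 0.029 and 0.0454 with no filter. Over the 14 arrays the 10 pairs among these probe sets correlated at r = 0.935 to 0.997. They read 1 gene from the same RNA and are no replicates of each other.

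Nfkbie encodes IkBepsilon, a slower inhibitor of the same family. It had the widest swings of all members. Its probe set 1458299_s_at read -1.63, -1.15 and -0.91 on the controls of A at 50K, 100K and 250K, and 1.85, 1.24 and 0.95 on the MMP3 arrays. The gap between the agents was widest at 50K, at 3.48, and was 2.40 at 100K and 1.86 at 250K. The rise of 2.58 (SE 0.11), 5.98-fold, was the largest of any member (adjusted p = 0.0141, limma), and it passed with no filter (0.0309).

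The second probe set of Nfkbie, 1431843_a_at, differed. It read 0.01, -0.21 and 0.00 on the controls of A and 2.14, 1.05 and 0.00 on the MMP3 arrays, so that the agents were apart at 50K and 100K and level at 250K, where the difference was -0.01. Its mean rise was 1.13 (SE 0.11, 2.19-fold, adjusted p = 0.0206, limma), in 2 of 3 pairs. Like that of Rel, this call was lost in the model without the product (0.155), with each density as a block (0.238) and with no filter (0.0583). The 2 probe sets of Nfkbie correlated at r = 0.78 over the 14 arrays.

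Tnfaip3, which encodes the deubiquitinase A20, a brake on signalling above the IkB kinases, gave the same order of the agents. Its probe set 1433699_at read -0.39, -1.11 and -1.55 on the controls of A and 0.69, 0.16 and -0.04 on the MMP3 arrays at 50K, 100K and 250K. Both agents were lower at each higher density, and no MMP3 array fell to the level of a control. The rise was 1.28 (SE 0.12), 2.43-fold (adjusted p = 0.02, limma; 0.0577 with no filter).

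Tnfaip2, a gene induced by tumour necrosis factor that encodes a protein of membrane protrusions, was read by 1438855_x_at, which may also match other transcripts. Of the 3 probe sets of the gene it was the 1 that passed the filter, and the others were nearly flat. The controls of A read -1.22, -0.19 and -0.73, and the MMP3 arrays 0.15, 0.02 and 0.79. The groups did not overlap, yet the change of 1.03 (SE 0.33) missed the threshold (adjusted p = 0.124, limma), with a 95% interval from 0.03 to 2.03. It is therefore not shown to have changed, and a change of the size seen in Nfkbia lies within that interval.

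In all, 11 of the 14 probe sets, from 7 genes, had each MMP3 array of A above each control, against 16.7% of all probe sets tested. The exceptions were Rel, Nfkb2 1429128_x_at and Nfkbie 1431843_a_at. Leaving out any 1 array of A kept every change positive, with Nfkbie 1458299_s_at between 2.33 and 2.66, Relb between 1.63 and 1.88, Nfkbia 1448306_at between 1.29 and 1.48, Nfkbie 1431843_a_at between 0.85 and 1.47, and Rel between 0.46 and 0.90. The signal of RNA quality moved with the agent in A: the difference between the 3′ and 5′ probe sets of Gapdh was -0.03 to 0.03 on the controls and 0.04 to 0.17 on the MMP3 arrays, while that of actin overlapped (-0.05 to 0.11 and -0.15 to 0.09). The 18S control probe set read 0.45 to 0.83 on the controls and 0.92 to 1.15 on the MMP3 arrays. The part of these in the rise was not tested.

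**Figure D2:**
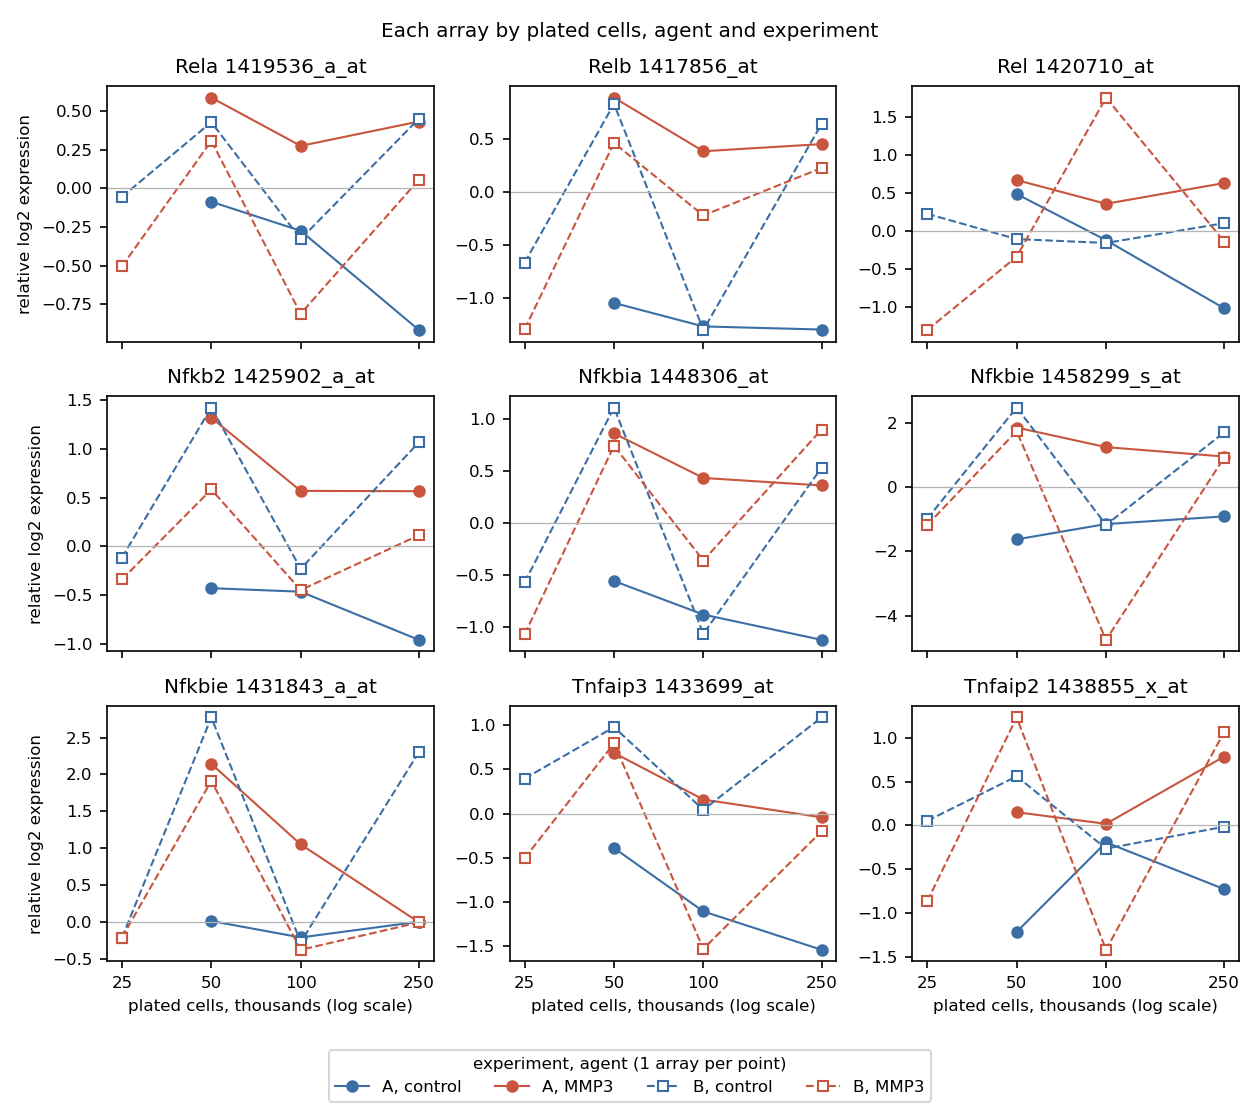
Relative log2 expression (vertical axis, separate scale per panel) against plated cells in units of 1000 (log axis) for 9 probe sets, 1 array per point, with filled points and solid lines for experiment A, open points and dashed lines for B, blue for control and red for MMP3. In experiment A the red line lies above the blue at each density, except for Nfkbie 1431843_a_at, where both are at 0.00 at 250K. The dashed lines of B peak at 50K, dip at 100K and rise again at 250K for most genes, while Rel in the MMP3 dishes peaks at 100K at 1.76.

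Plating density ordered the members within experiment A more loosely. The MMP3 array at 50K was the highest of the 3 MMP3 arrays in 12 of 14 probe sets (26.3% of all probe sets tested), all but Nfkbia 1420089_at and Tnfaip2. Among the controls, 50K was the highest in 12 of 14 (35.1% of all) and 250K the lowest in 11 of 14 (49.8% of all). Tnfaip2 went against both orders, with its lowest control at 50K, and so did Nfkbie 1458299_s_at, whose controls read lowest at 50K.

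The slope with density, the change per doubling of the plated cells averaged over both agents, was negative in 13 of 14 probe sets in A, but none passed, nor did any probe set of the whole table (0 of 27022, 0%, limma; 7287 had an unadjusted p under 0.05). With control 250K left out, 1977 probe sets had an unadjusted p under 0.05 in limma's fit, and with MMP3 250K left out 2787. Leaving out any other array of A gave 5466 to 6988. Control 250K also had the widest spread in A, an SD over probe sets of 0.396 against 0.250 to 0.293. The steepest slopes of members were Nfkbie 1431843_a_at at -0.46 (SE 0.06), Tnfaip3 at -0.40 (SE 0.06), Nfkb2 1429128_x_at at -0.33 (SE 0.07) and Rel at -0.33 (SE 0.06). Tnfaip2 was the sole positive slope, 0.23 (SE 0.17). Unadjusted p was under 0.05 in 6 member probe sets, and adjusted p ran from 0.115 to 0.715. Over all 14 arrays the slopes were positive in 9 probe sets and negative in 5, from -0.13 to 0.16, again with 0 of 27022 called (0%, limma; 2853 with an unadjusted p under 0.05). The interaction, whether the slope differs between agents, was called in 0 of 27022 (0%, limma; 582 with an unadjusted p under 0.05), and the members' values ran from -0.47 for Nfkbie 1431843_a_at to 0.59 for Rel, at an adjusted p of 1.

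In experiment B the agents as labelled did not part. Limma called 0 of the 14 member probe sets and 0 of 27022 overall (0%; 2864 had an unadjusted p under 0.05, none of them a member's). The change was positive in 3 probe sets, all of Nfkbia, and negative in 11, among them the other 2 of Nfkbia. Values ran from -1.32 for Nfkbie 1458299_s_at to 0.39 for Nfkbia 1420089_at, with adjusted p from 0.5 to 0.998. The 95% intervals were wide: -1.20 to 0.48 for Rela, -1.63 to 1.47 for Relb and -1.55 to 1.65 for Nfkbia 1448306_at. The interval for this probe set of Nfkbia took in its rise of 1.41 in A, and those for Relb and Rela ended below their rises of 1.78 and 0.86.

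The single arrays of B went up and down with the labelled density under both agents. Relb read -0.67, 0.83, -1.30 and 0.64 on the controls at 25K, 50K, 100K and 250K, and -1.30, 0.46, -0.22 and 0.22 on the MMP3 arrays. The controls at 50K and 250K were as high as the MMP3 arrays of A, the control at 100K was at the level of the controls of A, and that at 25K lay between the groups of A. Nfkbia 1448306_at was likewise above 0 at 50K and 250K and below 0 at 25K and 100K under both agents, with -0.57, 1.11, -1.07 and 0.53 on the controls and -1.07, 0.74, -0.36 and 0.90 on the MMP3 arrays. Rela ran within narrower bounds, at -0.06, 0.43, -0.33 and 0.45 on the controls and -0.50, 0.31, -0.81 and 0.06 on the MMP3 arrays.

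Nfkb2 1425902_a_at read -0.11, 1.42, -0.23 and 1.07 on the controls of B in order of density, and -0.34, 0.58, -0.45 and 0.11 on the MMP3 arrays, which were lower than their control in 4 of 4 pairs. Nfkb2 1429128_x_at was lower in 4 of 4 pairs as well, with 0.40, 0.59, -0.12 and 0.28 against -0.89, 0.21, -1.16 and -0.39. Tnfaip3 gave 0.40, 0.98, 0.04 and 1.09 on the controls and -0.51, 0.80, -1.54 and -0.20 on the MMP3 arrays, also lower in 4 of 4 pairs. Rela and Nfkbie 1458299_s_at were lower in 4 of 4 pairs too, which makes 5 of 14 probe sets, against 15.3% of all probe sets tested. For Nfkb2 by both probe sets and Tnfaip3, none of the 3 differences, -0.56 (SE 0.49), -0.84 (SE 0.36) and -0.99 (SE 0.56), passed (adjusted p = 0.719, 0.5 and 0.598, limma).

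Nfkbie had the extremes of B. Its probe set 1458299_s_at read -0.99, 2.48, -1.18 and 1.70 on the controls and -1.18, 1.74, -4.76 and 0.91 on the MMP3 arrays, the value of -4.76 being the lowest of any member on any array. It came from MMP3 100K, the array that stood apart in spread. Without that array the change in B was 0.05 in place of -1.32, that of Rel -0.59 in place of -0.02 (unadjusted p = 0.0485, adjusted p = 0.299, limma), and 7 of 14 probe sets were positive. Nfkbie 1431843_a_at read -0.21, 2.77, -0.27 and 2.30 on the controls and -0.21, 1.91, -0.38 and -0.01 on the MMP3 arrays, so it was high on 3 arrays of B and near 0 or below on the other 5.

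Rel and Tnfaip2 departed from the rest in B. Rel read 0.23, -0.11, -0.16 and 0.11 on the controls, and -1.30, -0.34, 1.76 and -0.14 on the MMP3 arrays, and its value of 1.76 was again on MMP3 100K, where most members were below 0. Tnfaip2 by 1438855_x_at read 0.05, 0.56, -0.27 and -0.02 on the controls and -0.87, 1.23, -1.42 and 1.07 on the MMP3 arrays. The wider swings were under MMP3.

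Across B, 0 of 14 probe sets had each MMP3 array above each control (4.43% of all probe sets tested) and 0 of 14 had each control above each MMP3 array (4.83%). A different split held: in 10 of 14 probe sets, from 5 genes, the 4 arrays labelled 50K and 250K, under either agent, were above the 4 labelled 25K and 100K, against 10.6% of all probe sets. These genes were Rela, Relb, Nfkb2 by 1425902_a_at, Nfkbia by all 5 probe sets and Nfkbie by both. Rel, Nfkb2 1429128_x_at, Tnfaip3 and Tnfaip2 did not follow it. This split was chosen after the values were seen and carries no test. The 4 arrays labelled 50K and 250K were also those of B that correlated positively with the MMP3 effect of A (r = 0.378 to 0.725). The split is therefore not separate from the rise of the members in A. In the RNA controls of B, the difference between the 3′ and 5′ probe sets of actin was -0.34 and -0.13 on the controls at 50K and 250K against -0.04 and 0.08 at 25K and 100K, and -0.12 and 0.19 against 0.18 and 0.65 on the MMP3 arrays. Over both agents it ran from -0.34 to 0.19 on the arrays labelled 50K and 250K and from -0.04 to 0.65 on the others, with overlap. The Gapdh difference ran from -0.06 to 0.14 and from -0.02 to 0.09, and the 18S probe set from -0.49 to 0.01 and from -0.65 to -0.04. The part of these in the split was not tested.

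**Figure D3:**
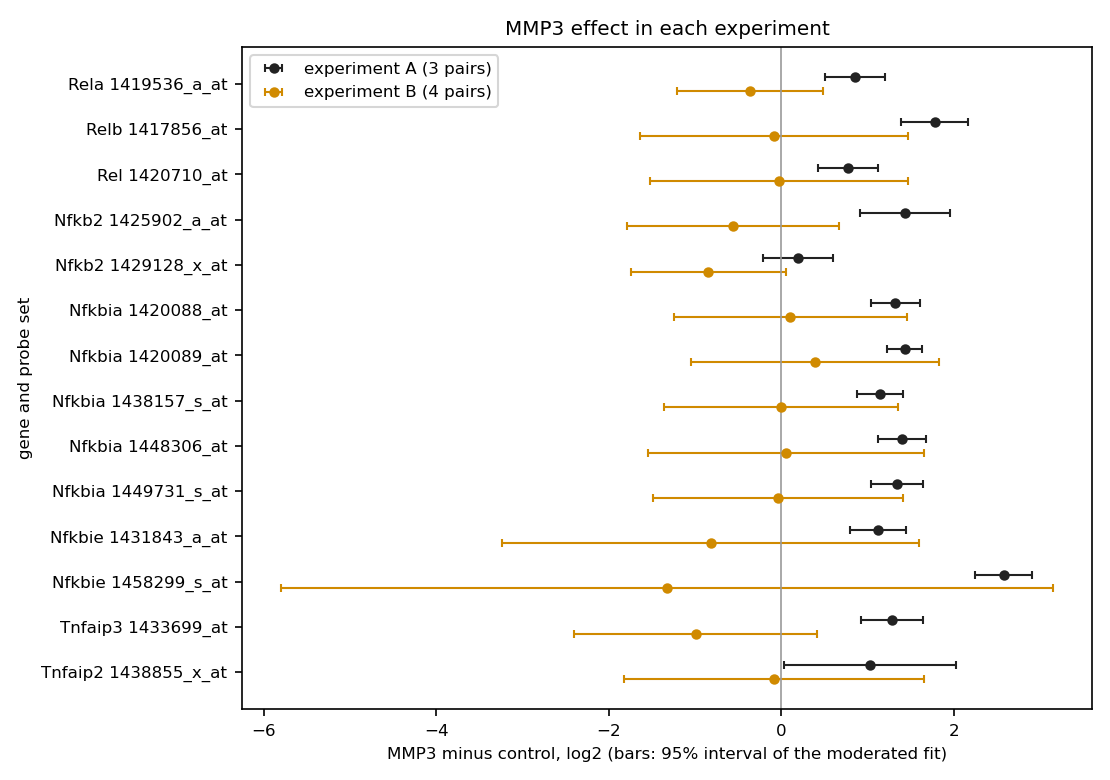
Change with MMP3 against control on the log2 scale (horizontal axis) for the 14 probe sets tested, in experiment A (black, 3 pairs) and B (orange, 4 pairs), with bars for the 95% interval of the moderated fit. The points of A lie between 0.20 and 2.58, each to the right of the B point of the same probe set, and those of B lie between -1.32 and 0.39 with bars that all cross 0.

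The difference of the MMP3 effect between the experiments was tested on the 12 arrays at the densities they share. The effect was lower in B for 14 of 14 member probe sets, with a median difference of -1.18 on the log2 scale (0.05 over all probe sets). This count carries no weight of its own. The members were chosen with earlier results of these data known, and 5 of these probe sets read Nfkbia. None of the 14 passed, and neither did any of the 27022 (0%, limma; 3396 had an unadjusted p under 0.05, among them 4 members). Those 4 were Nfkb2 1425902_a_at at -2.10 (SE 0.59), Tnfaip3 at -2.30 (SE 0.75), Relb at -1.68 (SE 0.70) and Rela at -1.19 (SE 0.47), at an adjusted p of 0.396 each. No probe set passed with any 1 of the 12 arrays left out, except the array labelled control 100K of B. Leaving out that array changed the outcome. Then 556 probe sets passed, and with them Relb at -2.36 (SE 0.27, adjusted p = 0.0212), Nfkb2 1425902_a_at at -2.60 (SE 0.37, adjusted p = 0.0286) and Nfkbia 1420089_at at -1.54 (SE 0.26, adjusted p = 0.0388), all in limma's fit.

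With all 14 arrays in 1 limma fit that carried experiment as a block, 589 probe sets (2.18%) passed for MMP3, and unadjusted p was under 0.05 for 4347. None of the 14 member probe sets passed, and 1 had an unadjusted p under 0.05, Nfkbia 1420089_at at 0.84 (SE 0.36, adjusted p = 0.284). Values were positive in 12 of 14, from -0.40 for Nfkb2 1429128_x_at to that of Nfkbia. The pooled values of Relb (0.71, SE 0.45) and Rela (0.16, SE 0.27) lay between those of the experiments taken apart.

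The members differed in how closely they moved with each other over the 14 arrays. Relb and Nfkbia were the closest pair of genes, at r = 0.945 to 0.966 over the 5 probe sets of Nfkbia, followed by Nfkb2 1425902_a_at with Rela (0.905) and with Relb (0.903). Tnfaip3 was nearest to Rela (0.875). Rel stood outside the group, with r between -0.265 and 0.396 to every other probe set. These correlations share the same 14 RNA samples and describe them only.

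Nfkbie 1458299_s_at, the member probe set with the largest SD, was also used to find the genes of the whole table with the most similar pattern. They were Dhx32 and Fam102b (r = 0.977 each), Nbea (0.975), Csf1, the growth factor of macrophages (0.974), and Il7, a growth factor of lymphocytes (0.974), over 14 arrays. The array MMP3 100K of B was far below the others for this probe set, and its weight in these values was not tested.

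The rest of the pathway was followed in experiment A through lists of genes by role, with 1 probe set per gene, the one of largest SD. Over all probe sets tested, without such a choice per gene, 11% were called higher and 8.91% lower. Of 10 ligands, such as tumour necrosis factor and the interleukins, 9 had a probe set, but only 2 passed the filter on spread and neither was called: Il18 at 0.37 and Ltb at -0.06. Among 15 receptors 11 were tested, and 5 rose and none fell. Tnfrsf12a, the receptor of the cytokine TWEAK, rose by 1.86 (SE 0.24), and the Toll-like receptor genes Tlr2, Tlr3 and Tlr4 by 1.72, 1.64 and 1.31. The median of the receptors was 0.53 on the log2 scale.

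The steps between receptors and NF-kappaB were next. Of 17 adaptors and ubiquitin ligases tested among 22 listed, 3 rose and none fell, with a median of 0.13. Over all probe sets tested 19.9% were called in either direction, so this list did not stand out by its count. They were Card10, a scaffold that links receptors to the IkB kinases, by 1.34, Tab3 by 0.61 and Myd88, the adaptor of the Toll-like receptors, by 0.46. Of 7 kinases tested among 8 listed, 2 rose: Ikbkg, the scaffold subunit of the IkB kinase complex, by 0.44 and Ikbkb, its catalytic subunit, also by 0.44. The median of the kinases was 0.36.

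Other inhibitors and cofactors moved in both directions. Of 12 tested among 14 listed, 3 rose and 1 fell, with a median of 0.16. Otud7b, a deubiquitinase, rose by 1.92, Tnip1, a partner of A20, by 1.58 and Nfkbib, which encodes IkBbeta, by 0.98, while Commd1, which promotes the breakdown of Rela, fell by 0.34. Among 19 other known NF-kappaB targets tested of 30 listed, 12 rose and 2 fell, with a median of 0.91. The chemokine gene Ccl5 rose by 3.43, Csf1 by 3.10, the chemokine gene Cxcl1 by 2.18 and Sdc4, a heparan sulfate proteoglycan, by 1.97. The 2 that fell were the chemokine gene Cxcl5 (-1.84) and Sod2 (-0.69), the mitochondrial superoxide dismutase, named for being the exceptions after their values were seen. All calls on these lists are limma's at an adjusted p under 0.05, beside 19.9% over all probe sets. No gene of these lists was called in experiment B or over all arrays.

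**Figure D4:**
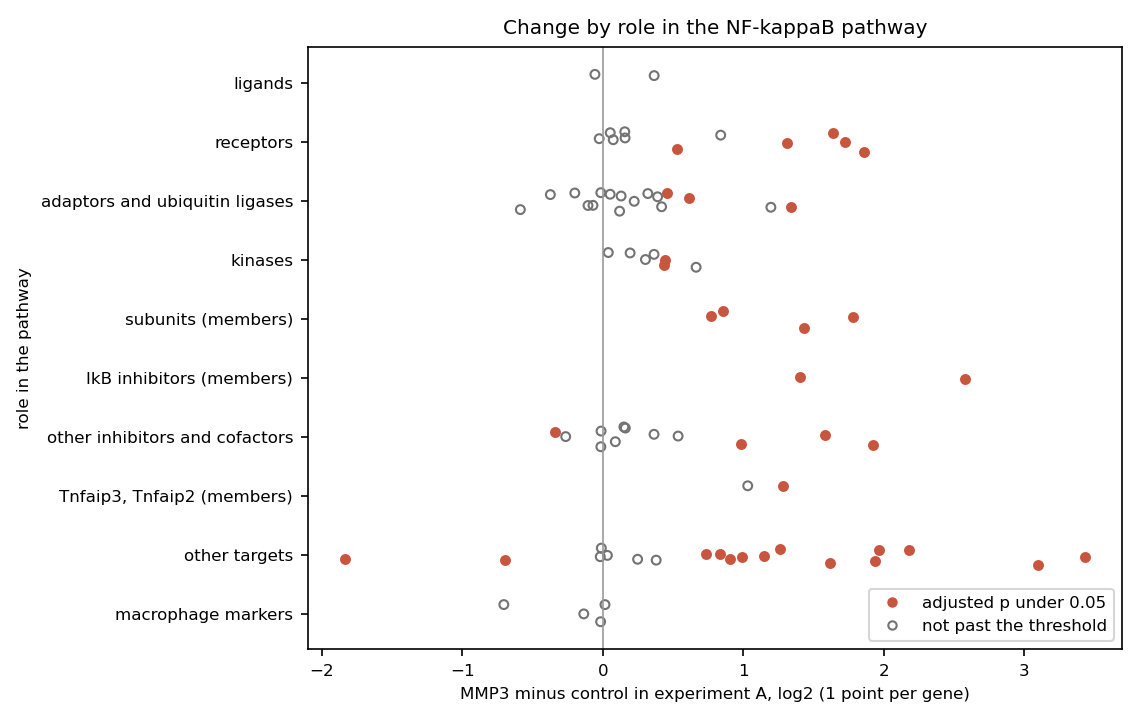
Change with MMP3 in experiment A on the log2 scale (horizontal axis) by role in the pathway (rows), 1 point per gene tested, filled red where the adjusted p was under 0.05 and open grey otherwise. All 4 subunits and both IkB inhibitors among the members are filled and at 0.77 or above, while most adaptors, kinases and ligands are open and the macrophage markers are all open.

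Markers of other cell types were followed beside these values. Of 8 macrophage markers 4 were tested and none passed (Cd68 -0.70, Cd14 -0.14, Lyz2 0.02 and Csf1r -0.02), and the other 4, Ptprc, Adgre1, Itgam and Aif1, were nearly flat. Of 8 fibroblast markers 2 were tested (Pdgfra -0.90 and Dcn -0.01) and of 4 lymphocyte markers 1 (Ms4a1 -0.06). None of them was called, and no endothelial marker passed the filter on spread. Of the 6 epithelial markers 4 were tested, Epcam and Cdh1 rose by 1.18 and 0.89, and the basal keratin gene Krt5 fell by 1.03. Krt14, at -0.38, was not called, and Krt8 and Krt18 did not pass the filter. The part of these epithelial changes in the rise of the members was not tested.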

How the data were processed

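RNA of 14 dishes was measured on Affymetrix Mouse 430 2.0 arrays from 200 ng of total RNA. The deposited table holds log2 expression values for 45101 probe sets, made with RMA per the submitters' processing notes. The log base and the centring are not stated: the row median was 0 within 5e-07 for every probe set, and folds assume log2, the base RMA gives. Values ran from -7.18 to 6.62. No scanner files were used here, so signal over background is unknown, and the number of arrays limits the precision.

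Of 45037 probe sets that are not controls, 34945 had 1 gene symbol, and 932 with several and 9160 unnamed were not matched to members. Entrez identifiers gave a current symbol for 34741 of them, and 204 kept the annotated one. The 27022 probe sets with an SD at or above the 40th percentile were tested in R 4.3.3 with limma 3.58.1 (its lmFit and eBayes functions), and p-values were adjusted by Benjamini-Hochberg over all 27022, with a threshold of 0.05. The fits to A and to B had agent, centred log2 density and their product, with 2 and 4 residual degrees of freedom, and the fit to all arrays added experiment as a block. The change with MMP3 is that at the mean log2 density. The difference between experiments was fitted without the product. This block comes from the labels, which name the experiments. Arrays of 1 experiment deviated from their group means with a mean correlation of 0.05 (-0.65 to 0.64). The code was tested on simulated data.

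The text names each probe set of the members, up to 4 called genes per list with the largest change in A, and the 5 genes most like the member of largest SD. Lists held ligands, receptors, adaptors and ubiquitin ligases, kinases, other inhibitors and cofactors, other targets, and markers of macrophages, fibroblasts, endothelium, lymphocytes and epithelium. Members and lists were chosen with earlier results of these data known, and the lists come from general knowledge. Alternatives were no filter, a robust prior, quantile normalization, an additive model, density or pair as a block, no block, 1 value per gene, and each array left out.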

Additional observations from a re-analysis of the deposited data

Results flagged for a closer look

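Nfkbie 1431843_a_at on the MMP3 arrays of experiment B was picked out because 1 of the 4 arrays lay far from the rest. MMP3 50K read 1.914 on the relative log2 scale, and the other arrays lay between -0.38 and -0.01, so that the gap to the nearest, over the whole range of the group, was 0.838. Chance gives such a gap in about 1 in 20 groups, and 28 groups of members were examined. The second probe set of Nfkbie read 1.74 on the same array and did not stand apart there. The cause was not tested.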

How the results depend on the processing

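The count of member genes called for MMP3 in experiment A was 7, and it was 3 with no filter (Relb, Nfkbia and Nfkbie) and 0 with each array of A left out, where 11 to 13 of the 14 probe sets had an unadjusted p under 0.05. Over the whole table the count of probe sets in A was 5379 as fitted, 1853 with no filter, 3145 with each density as a block and 0 with any array left out. Fewer residual degrees of freedom (1 in place of 2) come with leaving out an array. An additive model, whose leave-one-out fits keep 2 degrees of freedom and were added after seeing the data, called 6 member genes, and 2 to 5 with an array left out. The 14 single changes in A had 182 alternative values, of which 98 stayed on the same side of the threshold, 82 lost the call (72 of them with an array left out), 2 gained it and 0 turned direction. The 2 gains belong to Nfkb2 1429128_x_at with 1 value per gene, which puts the other probe set of Nfkb2 or the mean of both in its place, so the probe set itself gained no call.

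Over all arrays the 589 probe sets called became 279 with no filter, 1026 after quantile normalization, 0 with no replicate block and 0 with the matched control and MMP3 pair as the replicate block. Leaving out an array gave 0 to 2284, with 2284 without MMP3 100K of B, 1301 without control 50K of B and 1106 without control 250K of A. No member was called in any of these fits, so neither block changed a member's call. For the difference between experiments, leaving out an array gave 0 to 3 member genes and 0 to 556 probe sets, the upper values without control 100K of B. In B the 3 member probe sets with a positive change became 7 after quantile normalization and 0 to 8 with an array left out. The cause of these shifts was not tested. The density slope and the interaction called 0 member genes with the block and without it.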
